A study of Mus musculus with 14 samples.

Results

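Norrin and Wnt ligands keep the endothelial barrier of the retina and the brain closed, and the 10 genes described here carry that signal: *Ndp*, *Fzd4*, *Lrp5*, *Lrp6*, *Tspan12*, *Adgra2*, *Reck*, *Lef1*, *Axin2* and *Apcdd1*. They were chosen by name, for their known place in the pathway. All 10 are among the 26528 genes of the brain data and the 28316 genes of the retina data. Each gene's UMIs (unique molecular identifiers, counted molecules) were summed over the nuclei of 1 cell type and 1 library and are given as CPM, that is, scaled to the total UMIs of those nuclei.

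As background, Norrin, a protein that *Ndp* encodes, binds the receptor Frizzled-4 on endothelial cells (ECs), where LRP5 or LRP6 is the partner receptor and TSPAN12 strengthens the response. In the brain, WNT7A and WNT7B use GPR124 (the product of *Adgra2*) and RECK as co-activators at the same receptors. Both routes stabilize beta-catenin, which acts with LEF1 and related factors on targets that include *Axin2* and *Apcdd1*, and its loss from ECs opens the blood-retina or blood-brain barrier.

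The study removed *Tgfbr1*, a TGF-beta receptor gene, from mouse ECs. Knockout (CKO) mice were *Cdh5CreER;Tgfbr1 CKO/-* (VEcadCreER in the labels) and received 4-hydroxytamoxifen from postnatal day 3 to day 5. Controls are labeled wild type. The study's text says that its phenotypically WT controls typically carried *Cdh5CreER* with 1 floxed and 1 intact allele, *Tgfbr1 CKO/+* or *Tgfbr2 CKO/+*, and does not say which genotype gave the control nuclei sequenced here. Tissue was taken at postnatal day 14 by the study's methods, while the series text says young adult. The Cre is driven by an endothelial promoter, so CKO cells of other types keep 1 of their *Tgfbr1* alleles. Nuclei came from whole retinas (1 control and 11 CKO libraries) and from vascular fragments of brain (1 control and 1 CKO library, 2 brains pooled in each). The kit counts the 3′ ends of transcripts.

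The brain libraries hold 16649 control and 14675 CKO nuclei under 21 cell type labels of the authors, and 2 barcodes occur in both. The nuclei labeled ECs (2475 control, 2944 CKO) carry the highest level of 9 of 9 EC markers among those labels. With 1 library per genotype no test was possible in brain, so the ratios there come with exact conditional binomial 95% intervals that cover counting error only. The retina libraries hold 77676 nuclei under 11 labels, with 10 barcodes found in 2 libraries. None of those labels is endothelial. The retinal p-values reflect the spread between libraries, and neither labels nor methods say how many mice went into a retina library.

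Of the members, *Apcdd1* differed most between the ECs of the 2 brain libraries. It encodes a membrane protein that damps Wnt signaling and is itself switched on by the pathway in barrier endothelium. Its level was 2269 CPM in control ECs (95% interval 2229.9 to 2308, 13161 UMIs) and 1296 CPM in CKO ECs (1269 to 1323, 8880 UMIs). The CKO level was 0.571 times the control level (0.556 to 0.587). It was the single member past a fold of 1.5 in either direction, out of the 9 members with at least 50 UMIs over both libraries. That is 1 of 9 against 30.7% of all 11351 genes measured, so the count does not set the list apart from other genes. By direction, 1 member was lower past the fold (9.32% of all genes) and 0 were higher (21.4% of all genes).

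All genes together did not center on a ratio of 1. Their median ratio was 1.10, a shift of 0.14 on the log2 scale, with 2428 genes higher and 1058 lower past the fold. With edgeR's TMM factors the median was 1.03, with 1989 higher and 1382 lower, and with each nucleus given the same weight it was 1.33. The members sat below this center. Their median ratio was 0.897, and 8 of the 9 had a ratio under 1, against 4304 of all 11351 genes. *Lrp6* alone was above 1, and with ratios divided by the median of all genes, a scaling chosen after seeing the data, it read 0.986. On that scale *Apcdd1* was at 0.518 and 3 members, *Apcdd1*, *Reck* and *Lrp5*, were past the fold on the lower side. That is 3 of 9, beside 29.8% of all genes past it in either direction and 13.4% lower.

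**Figure D1:**
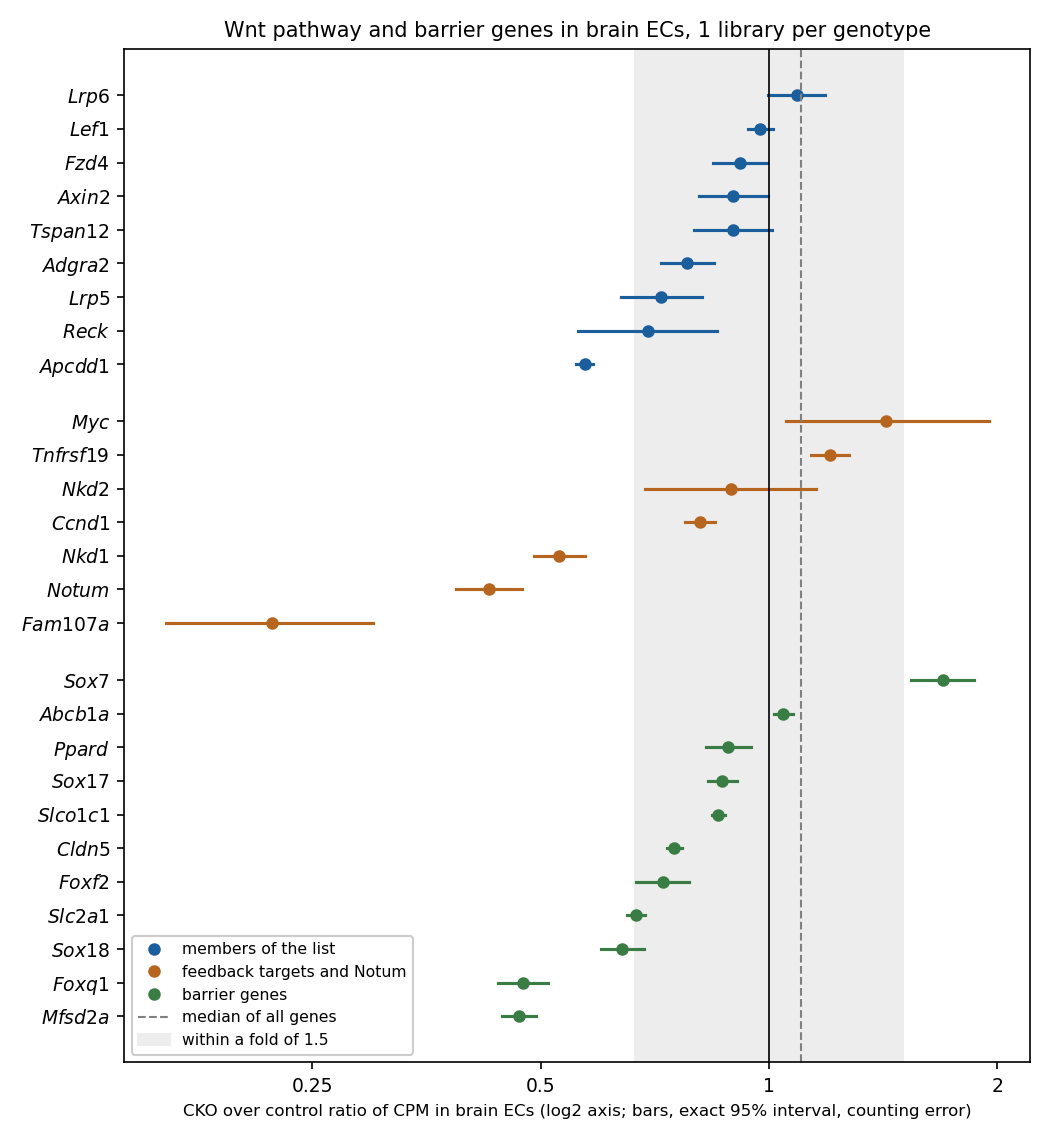
CKO over control ratio of CPM in brain ECs on a log2 axis, for genes with 50 or more summed UMIs. Drawn are 9 members of the list, the genes listed as feedback targets with *Notum*, and 11 of the 12 measured barrier genes. Points are ratios from 1 library per genotype, bars are exact 95% intervals for counting error, the gray band is within a fold of 1.5 and the dashed line is the median of all genes (1.10). *Apcdd1* is the single member outside the band, and *Notum*, *Nkd1*, *Fam107a*, *Mfsd2a* and *Foxq1* lie farther left than it does.

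The low *Apcdd1* ratio was present at every depth. ECs were put in 5 groups by their UMIs per nucleus, a split chosen after seeing the data, and the *Apcdd1* ratio lay between 0.533 and 0.602 in all 5. At 1000 UMIs drawn from each nucleus that had them, an expected 84.4% of control and 70.0% of CKO ECs would show an *Apcdd1* UMI. In the neurons labeled Glut_0, taken as a measure of background, 0.331% of control nuclei and 0.0645% of CKO nuclei had one at their full depth (median 5004 and 2314 UMIs, against 1347 and 1491 in ECs). *Apcdd1* is thus far above background in ECs of both genotypes.

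Which nuclei are counted as ECs did matter for it. Taking every nucleus with at least 2 EC markers whatever its label, the *Apcdd1* ratio was 0.762 and no longer past the fold, while *Reck* (0.551) became the single member past it, beside 21.4% of all genes lower. In that set *Lef1* (1.22), *Fzd4* (1.12), *Axin2* (1.06) and *Tspan12* (1.02) had ratios above 1, so their direction too depends on the choice of nuclei. The summed EC markers themselves were lower in CKO ECs, at 12922 CPM in control and 10089.8 CPM in CKO (9 of 9 detected, *Flt1* the most abundant), while in the set of any label they were near level, at 9351 and 9307 CPM. Pericyte markers in the labeled ECs summed to 8400 and 7157 CPM (8 of 8 detected, *Rgs5* the most abundant). In the 497 control and 198 CKO ECs where pericyte markers made up at most 10% of the pericyte and EC marker UMIs, the *Apcdd1* ratio was 0.605. There *Fzd4* (0.610), *Lef1* (0.600) and *Adgra2* (0.626) were past the fold as well, among 7 members with enough UMIs and beside 27.8% of all genes lower. EC markers in this subset summed to 21439.8 CPM in control and 12664 CPM in CKO, farther apart than in all labeled ECs, and their part in these ratios was not tested.

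*Apcdd1* was also the member most tied to ECs in brain. ECs held 91.0% of its UMIs in control and 98.0% in CKO. Of all UMIs, ECs held 5801552 of 49798325 in control and 6851854 of 31033373 in CKO, a larger share in CKO. The next level in control was that of vascular smooth muscle cells (vSMCs), 541 CPM, and the EC level was 4.19 times as high. vSMC nuclei carry EC markers too (5804 CPM in control, 6073 in CKO), and their *Apcdd1* ratio was 0.787 (0.639 to 0.961). The gene lies on chromosome 18 (63055302 to 63094250, plus strand, GRCm39), and no other annotated gene overlaps it.

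*Axin2*, a scaffold of the complex that degrades beta-catenin and a target that most tissues share, was close to level in brain ECs. It read 118 CPM in control (109 to 127) and 106 CPM in CKO (98.4 to 114), a ratio of 0.897 (0.807 to 0.998). The interval stops just short of 1. So the 2 target genes of the list differed in size, with intervals that do not overlap. Control pericytes read higher than control ECs for *Axin2*, at 181 CPM, but on 22 UMIs, and the 22 CKO pericyte nuclei held 0 of its UMIs among 9213, for which the exact 95% interval reaches 400.4 CPM.

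*Lef1* encodes the transcription factor through which beta-catenin acts in many ECs. Its level was 861 CPM in control ECs (838 to 886, 4998 UMIs) and 839 CPM in CKO ECs (817 to 861, 5746 UMIs), a ratio of 0.973 with an interval of 0.937 to 1.01. This near-level ratio hides a trend with depth. From the shallowest to the deepest of the 5 groups of nuclei the *Lef1* ratio was 0.697, 0.681, 0.871, 1.03 and 1.19. It was 0.772 when each nucleus had the same weight. The direction for *Lef1* thus depends on which nuclei carry the weight, unlike that for *Apcdd1*, and no cause was tested.

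*Lef1* was not an EC gene alone. ECs led in both libraries, followed in control by the neurons labeled Glut_19 at 626 CPM and by CP_8 at 476 CPM, where the choroid plexus markers are highest. In CKO these read 644 and 516 CPM. Over the 21 brain labels of the control library, the genes most like *Lef1* by Pearson correlation of log2(CPM + 1) were *Rbms2* (0.875), *Klhl36* (0.871), *Cgnl1* (0.856), *Slco1a4* (0.845) and *Lypla1* (0.834), out of 14447 genes. Among members, *Apcdd1* ranked 98 and *Fzd4* ranked 112. These 21 points share 1 library, and genes are not independent replicates.

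**Figure D2:**
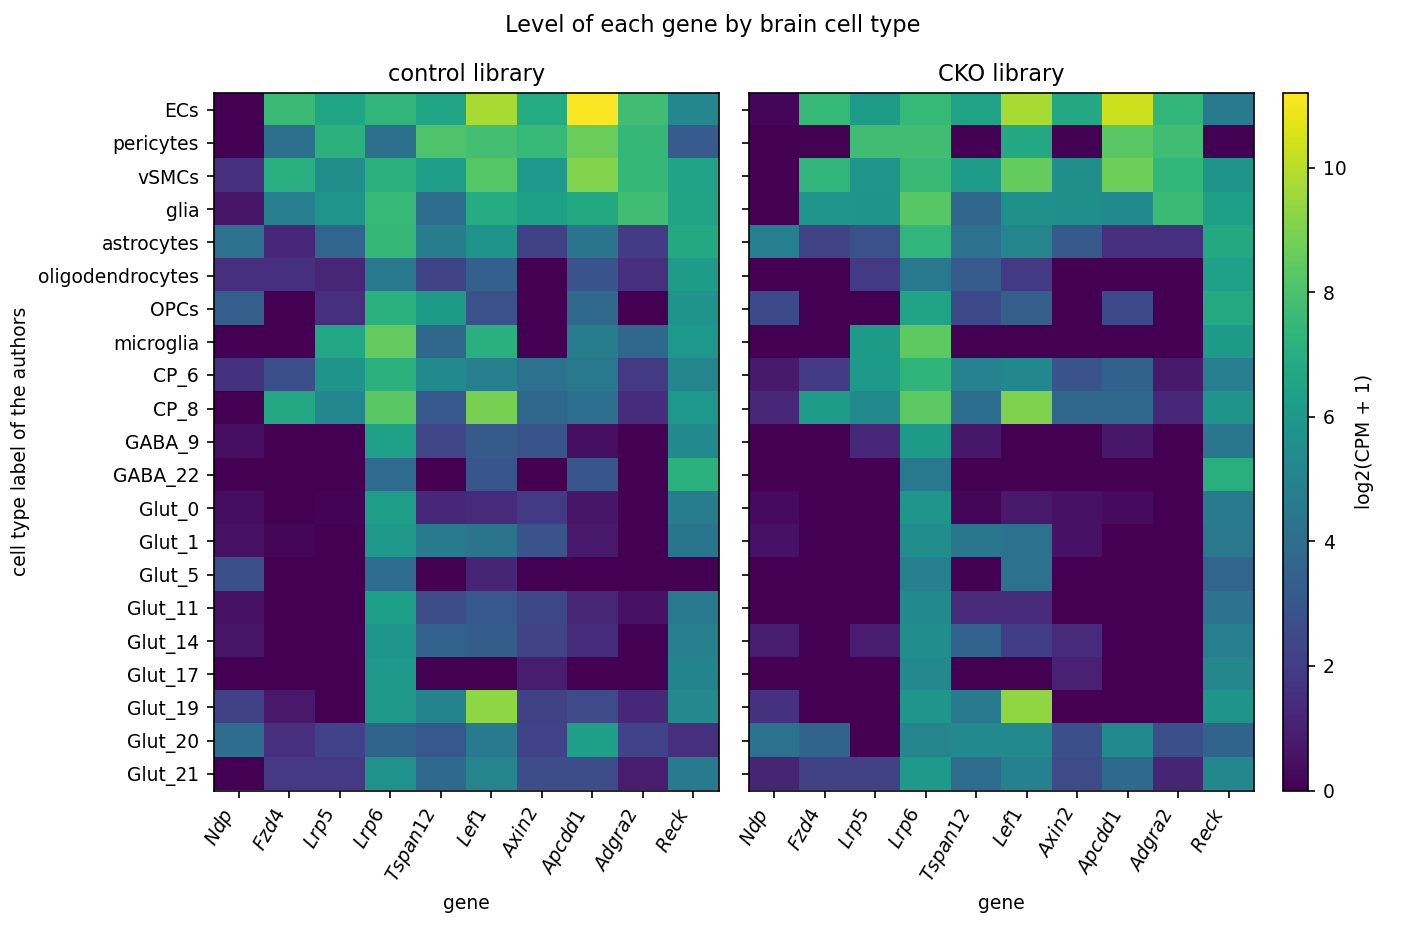
Level of each of the 10 genes, as log2(CPM + 1) on the color scale, in the 21 brain cell types labeled by the authors, with 1 panel per library. Each cell is 1 library's sum, and the levels of pericytes and microglia in CKO rest on 22 and 11 nuclei. *Apcdd1* is highest in ECs in both libraries, *Lrp6* and *Reck* spread over most types, and *Lef1* has a high level in Glut_19 and CP_8 as well.

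The receptor genes differed less than *Apcdd1* did in brain ECs. *Fzd4*, the Norrin receptor, read 199 CPM in control (188 to 211) and 183 CPM in CKO (173 to 193), a ratio of 0.916 (0.844 to 0.993). It was highest in ECs in both libraries, ahead of vSMCs at 132 and 163 CPM, and their intervals did not overlap in control. *Lrp5*, the co-receptor that Norrin needs in the retina, read 97.6 and 70.3 CPM, a ratio of 0.721 (0.637 to 0.816). Its paralog *Lrp6* read 165 and 180 CPM, a ratio of 1.09 (0.998 to 1.18). The *Lrp5* interval lies below that of *Lrp6*, so the ratios of the 2 co-receptor genes differed beyond counting error in the labeled ECs. In the subset low in pericyte markers they did not keep that order, at 1.00 for *Lrp5* (60 UMIs) and 0.963 for *Lrp6* (72 UMIs). *Lrp6* was broad, with 4 control labels above ECs, led by microglia (363 CPM on 29 UMIs) and CP_8 (317 CPM). In control 18.4% of its UMIs lay in ECs.

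The genes that assist the receptors were all at ratios under 1 in the labeled ECs, under each scaling tried. *Tspan12*, the tetraspanin that helps Norrin signal, read 95.8 and 86.0 CPM in ECs, a ratio of 0.897 (0.797 to 1.01). *Adgra2* read 216 and 169 CPM, a ratio of 0.780 (0.719 to 0.845). *Reck*, which anchors WNT7 ligands beside GPR124, read 35.0 and 24.2 CPM, a ratio of 0.692 (0.561 to 0.854) on 203 and 166 UMIs. The 2 partners of the WNT7 complex were thus both below 1 with intervals that exclude it, short of the fold in CPM. With TMM factors (0.644) and with equal weight per nucleus (0.630) *Reck* was past the fold, and *Adgra2* was not (0.726 and 0.710). The 2 genes differed in where they are found. ECs led for *Adgra2* in control, with an interval that overlaps that of the nuclei labeled glia (214 CPM), and in CKO glia (200.3 CPM), vSMCs (170.3 CPM) and pericytes (on 2 UMIs) read above them, while for *Reck* 10 control labels read above ECs, among them astrocytes at 111 CPM.

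Pericytes gave the highest control level of *Tspan12*, 279 CPM (193 to 390, 34 UMIs). OPCs held 35 control UMIs of it and 1 in CKO. The CKO pericytes held 0 *Tspan12* UMIs, with an interval that again reaches 400.4 CPM, so no difference in pericytes was detectable.

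*Ndp*, the ligand gene, was near absent from brain ECs, with 0 UMIs in control and 1 in CKO. It was highest in astrocytes, at 16.9 CPM in control (10.7 to 25.3, 23 UMIs) and 27.7 CPM in CKO (15.1 to 46.5, 14 UMIs). Glut_20 came next, at 15.2 CPM in control (6.55 to 29.9, 8 UMIs) and 16.9 CPM in CKO (3.48 to 49.3, 3 UMIs). Its intervals overlap those of astrocytes. The astrocyte ratio of 1.64 has an interval of 0.781 to 3.33 that includes 1. No difference in *Ndp* was therefore detectable in brain astrocytes at this depth.

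Outside ECs, the label with the most members past the fold was glia, a name its markers only partly bear out. Of 4 fibroblast markers, 3 were highest there, against 1 of 6 astrocyte markers. In these nuclei 5 of the 8 members with enough UMIs were past the fold, beside 37.9% of all 6480 genes. *Fzd4* read 26.5 and 56.1 CPM (ratio 2.11, 1.27 to 3.45) and *Lrp6* 181 and 313 CPM (ratio 1.73, 1.42 to 2.10). On the other side were *Lef1* (123 and 48.1 CPM, ratio 0.391, 0.245 to 0.598), *Axin2* (80.2 and 46.1 CPM, ratio 0.574, 0.352 to 0.897) and *Apcdd1* (111 and 40.1 CPM, ratio 0.362, 0.216 to 0.574). The factor and both target genes were thus lower there while 2 receptor genes were higher. The label held 1227 control and 419 CKO nuclei, and its marker levels differed too. EC markers summed to 957 CPM in control and 583 in CKO (9 of 9 detected, *Cdh5* the most abundant), pericyte markers to 1206 and 801 (8 of 8, *Atp13a5*) and OPC markers to 425 and 210.3 (4 of 4, *Pdgfra*). Astrocyte markers were higher in CKO, at 1052 and 1356 CPM (6 of 6, *Gja1*), and fibroblast markers near level, at 2172 and 2194 (4 of 4, *Col1a1*). Not all marker lists are given here. The part of these differences in the members' ratios was not tested. In vSMCs 1 of 9 members, *Reck* with a ratio of 0.621 on 14 CKO UMIs (an interval that starts at 0.331 and includes 1), was past the fold beside 27.4% of genes.

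In CP_6, where 3 of 3 ependymal markers are highest, both target genes were lower past the fold, 2 of 7 members beside 15.1% of genes. *Axin2* had a ratio of 0.388 (0.169 to 0.791, 9 CKO UMIs) and *Apcdd1* of 0.457 (0.238 to 0.816, 14 CKO UMIs). Choroid plexus markers in these nuclei summed to 2941 CPM in control and 1265 CPM in CKO (3 of 3 detected, *Ttr* the most abundant), and their part was not tested. In OPCs both members with enough UMIs were past the fold, beside 45.4% of genes, *Reck* with a ratio of 2.14 (1.19 to 3.82) and *Lrp6* with 0.649 (an interval that includes 1). A single member was past it, on the lower side, in CP_8 (*Fzd4*, of 5 with enough UMIs), astrocytes (*Lef1*, of 3) and GABA_9 (*Reck*, of 2). In Glut_1 (of 4), Glut_11 (of 2) and Glut_17 (of 2) that member was *Lrp6*. Of all genes in these labels, 9.55% (GABA_9) to 22.2% (astrocytes) were lower past the fold, and 16.3% to 35.6% were past it in either direction. The *Lef1* interval in astrocytes (0.338 to 1.04) includes 1.

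The wider pathway had ratios on both sides of the all-gene median in brain ECs. Of 86 other pathway genes, 84 are in the data and 44 had at least 50 UMIs. Past the fold, 4 of the 44 were higher (21.4% of all genes) and 5 lower (9.32% of all genes), so more of all genes were higher than of these. Their median ratio was 1.06 against 1.10 for all genes. The higher ones were the receptors *Fzd3* (2.47) and *Fzd5* (1.96), the signal relay *Dvl1* (2.04) and *Apc* (1.66), part of the complex that degrades beta-catenin. Of the 5 lower ones, 2 are known feedback inhibitors that the pathway induces: *Notum*, a lipase that inactivates Wnt proteins, read 205 and 87.6 CPM (ratio 0.428, 0.387 to 0.472) and *Nkd1*, which binds Dishevelled, read 286 and 152 CPM (ratio 0.529, 0.489 to 0.572). The others were *Fam107a* (0.221, 203 and 53 UMIs), the secreted inhibitor *Sfrp2* (0.340) and the receptor *Fzd1* (0.323). By class, feedback targets had a median of 0.850 over 6 genes, secreted or membrane inhibitors 0.761 over 6, and cytoplasmic components 1.24 over 12. Receptors (1.06 over 9), transcription genes (1.06 over 9) and ligands (1.06 over 2) lay near the median of the whole list.

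Other genes of these classes were within the fold on either side of 1. *Tnfrsf19* read 351 and 423 CPM (ratio 1.20), *Znrf3*, which removes Frizzled receptors from the membrane, 216 and 284 CPM (ratio 1.32), and *Ctnnb1*, the beta-catenin gene itself, 725 and 531 CPM (ratio 0.733). *Tcf7l2* and *Tcf7*, which encode relatives of LEF1, had ratios of 0.679 and 0.885. Genes of the class listed here as feedback targets thus ran from 0.221 to 1.43 (*Myc*, on 70 and 118 UMIs). *Apcdd1*, *Notum* and *Nkd1* shared their direction with some genes of that class and not with others. The 6 genes given in this paragraph were named after their values were seen.

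Of 13 barrier genes known to follow beta-catenin in endothelium, 12 had enough UMIs, with a median ratio of 0.737. Past the fold, 3 of the 12 were lower (9.32% of all genes) and 1 higher (21.4% of all genes), which together is near the 30.7% of all genes. The lipid transporter gene *Mfsd2a* read 728 and 340.5 CPM (ratio 0.468, 0.445 to 0.492). The transcription factor genes *Foxq1* (0.474) and *Sox18* (0.641) were lower and *Sox7* (1.69) was higher. The tight junction gene *Cldn5* (0.750), the glucose transporter gene *Slc2a1* (0.668) and *Foxf2* (0.724) were within the fold. In all, 10 of the 12 had ratios under 1, a larger share than the 4304 of all 11351 genes, and that difference was not tested. *Plvap*, which marks leaky vessels and is low where the pathway is active, had 28 control and 4 CKO UMIs, too few for the count. Its ratio was 0.121, with an interval of 0.0308 to 0.346 that excludes 1. *Tgfbr1*, the deleted gene, read 69.1 and 62.9 CPM in ECs (ratio 0.910, 0.792 to 1.05), and *Tgfbr2*, which encodes its partner, 396 and 742 CPM (ratio 1.87, 1.78 to 1.97).

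In the retina *Ndp*, the ligand gene, was highest in Müller glia, the radial glia of the retina, which led in 8 of 11 libraries. Müller glia held 45.4% of its 828 UMIs but 5.56% of all UMIs. Its level there was 17.9 CPM in control (11.8 to 26.0, 27 UMIs). The 10 CKO libraries with enough Müller glia ran from 2.37 (replicate 7, on very few UMIs) through a median of 28.8 to 36.4 CPM (replicate 8), with 7 of 10 above control. The control lies inside their range. The CKO mean was 24.6 ± 10.4 CPM (SD, n = 10), 6.75 CPM above control. An exact permutation test over libraries, two-sided, gave p = 0.727, and it can give none under 0.0909. Within the batch of the control the mean was 22.5 ± 6.99 CPM (SD, n = 3, exact p = 0.75, smallest 0.25). With 1 control neither test can reach 0.05, so they leave unsettled whether *Ndp* differed. edgeR gave a log2 fold change of 0.37 ± 0.63 (SE, adjusted p = 0.943).

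*Ndp* had lesser levels in some retinal neurons. Horizontal cells read 13.4 CPM in control and 15.6 ± 12.1 CPM in CKO (SD, n = 10), and ganglion cells 8.66 and 5.16 ± 3.07 CPM (SD, n = 11). In 9 of 11 libraries Müller glia read above horizontal cells, the next type by mean level, and in CKO the 2 means lie within their SDs. GABAergic amacrine cells (GABA_AC) were at 1.80 CPM in control and above it in 10 of 10 CKO libraries (mean 3.71 ± 1.24), yet that difference was not called by edgeR (log2 fold change 1.23 ± 0.60 (SE), p = 0.0569 unadjusted, adjusted p = 1). Over the 11 retinal labels, the genes most like *Ndp* by Pearson correlation of log2(CPM + 1) were *Col9a1* (0.960), *Abca8a* (0.954), *Gm29260* (0.952), *Pcsk5* (0.947) and *Akap12* (0.946), out of 17302. *Abca8a* is among the Müller glia markers used here. *Tspan12* came closest among members, at rank 41 (0.899).

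Across retinal cell types no member was called by the test over all genes. In Müller glia edgeR called 0 of 9 members tested (adjusted p under 0.05), beside 0.0385% of 12992 genes, and 0 of the 9 had an unadjusted p under 0.05. That last count depends on the libraries and settings. Without CKO replicate 3 *Reck* had a log2 fold change of -0.56 (from -0.37, unadjusted p = 0.00767) and *Lef1* of -1.01 (from -0.76, unadjusted p = 0.0223), and without replicate 8 *Lef1* had an unadjusted p of 0.0361. *Lef1* was also under 0.05 unadjusted in nuclei with at least 1000 UMIs, as were both genes with no count filter, and 0 members were called in any of these fits. With all libraries edgeR called 0 of 3 in cones (0.0622% of genes), 0 of 10 in GABAergic amacrine cells (0.00676%), 0 of 8 in glycinergic amacrine cells (0.0363%), 0 of 6 in rod bipolar cells (0.0171%) and 0 of 6 in rods (0.0141%). In astrocytes (0 of 4 members), cone bipolar cells (0 of 9), horizontal cells (0 of 6), immune cells (0 of 2) and ganglion cells (0 of 7) it called 0% of genes. Over these 70 tests 2 had an unadjusted p under 0.05, as had 6247 of the 126866 tests of all genes (4.92%), and DESeq2 called 0, with 0 under 0.05 unadjusted. The genotype effect in this fit is estimated from the control and CKO replicates 1 to 3 alone, since the other batches hold no control, and the spread of the lone control is taken to be that of the CKO libraries.

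The 2 tests with an unadjusted p under 0.05 concerned a receptor gene and *Tspan12*, both in neurons. *Tspan12* in horizontal cells was at 46.7 CPM in control, and the CKO libraries ran from 6.13 through 31.0 to 49.4 CPM (log2 fold change -1.27 ± 0.50 (SE), p = 0.021, adjusted p = 0.761), with 9 of 10 below control. *Lrp5* in cone bipolar cells was at 0.945 CPM on 5 UMIs in control and ran from 1.99 to 4.20 CPM in CKO, 10 of 10 above control (log2 fold change 1.70 ± 0.67 (SE), adjusted p = 1). Both fail the correction over all genes, and 2 of 70 is no more than the share of all genes.

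*Lef1* in Müller glia had the smallest adjusted p of any member, 0.582. Müller glia held 53.1% of its 896 retinal UMIs and led in 11 of 11 libraries. The control read 44.3 CPM (34.4 to 56.3, 67 UMIs), and the CKO libraries ran from 21.5 through 30.0 to 52.4 CPM, with 1 of 10 above control. The log2 fold change was -0.76 ± 0.39 (SE, unadjusted p = 0.0646), and the exact permutation test over libraries gave p = 0.273. Within the control's batch the CKO mean was 28.3 ± 10.1 CPM (SD, n = 3, exact p = 0.25, the smallest possible). Over all batches the groups overlap, and edgeR did not call the difference, while the permutation test cannot go under 0.0909.

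*Reck* and *Adgra2*, the pair that assists WNT7, both had their highest retinal level in Müller glia, in 11 of 11 libraries. *Reck* read 359 CPM in control (329.7 to 391), and the CKO libraries ran from 243 through 304 to 383 CPM, with 2 of 10 above control (exact permutation p = 0.545). The type after Müller glia, glycinergic amacrine cells, read 56.8 CPM in control and 63.1 ± 6.04 CPM in CKO (SD, n = 10), far outside the spread. *Adgra2* read 87.4 CPM in control and 87.6 ± 10.6 CPM in CKO (SD, n = 10), with 4 of 10 above control (exact p = 1). Within the control's batch the CKO means were lower than control for both, at 78.0 ± 4.89 CPM for *Adgra2* (SD, n = 3, exact p = 0.25, the smallest possible) and 296 ± 71.6 CPM for *Reck* (SD, n = 3, exact p = 1). Müller glia held 73.1% of the 1744 UMIs of *Adgra2*.

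**Figure D3:**
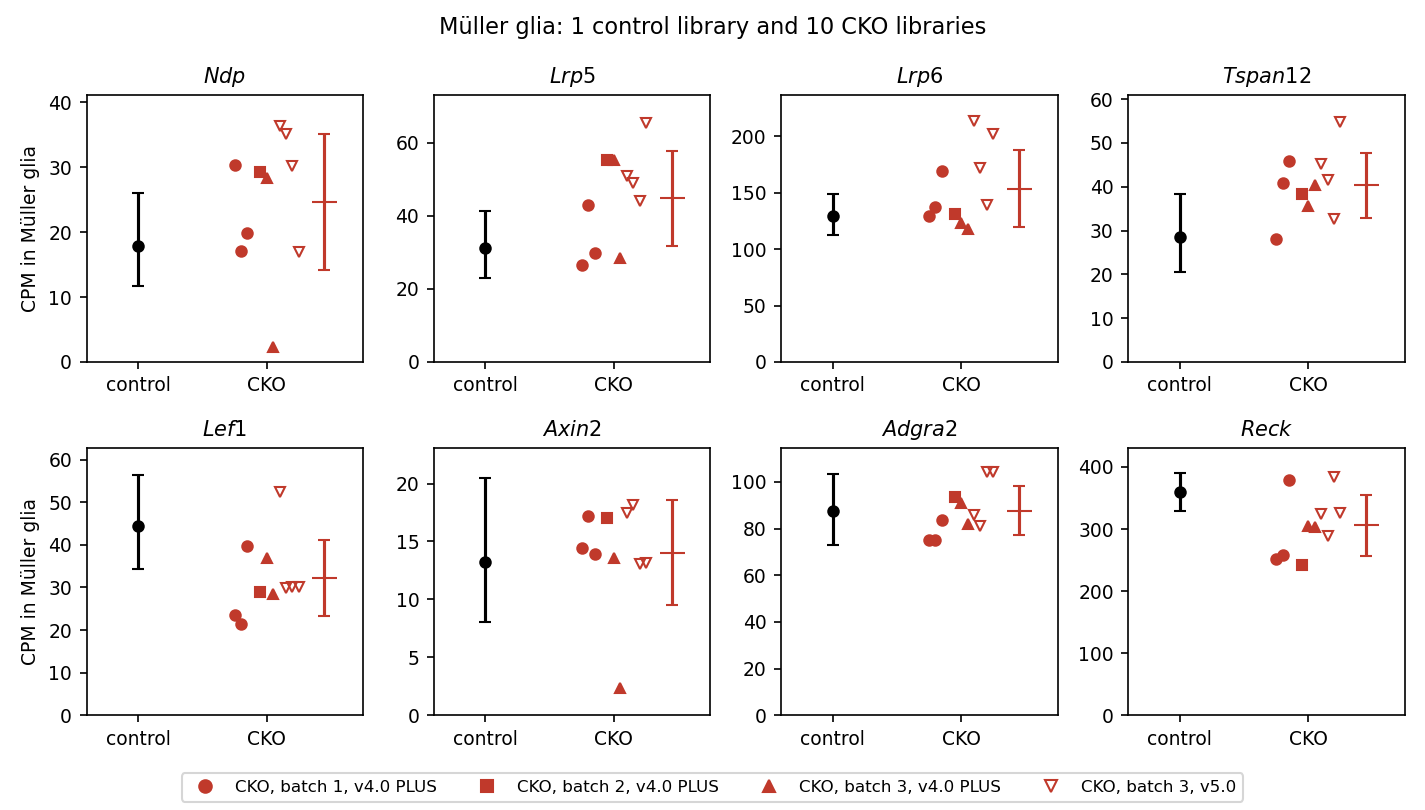
CPM of 8 members in Müller glia of each retina library, with the control in black (bar, exact 95% interval of its count) and the 10 CKO libraries in red by batch and kit, beside their mean and SD. The control lies within the range of the CKO libraries for each of the 8 genes, and *Lef1* has 1 of 10 CKO libraries above it.

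The co-receptor genes had a wide and a narrow pattern in the retina. *Lrp6* was present in every retinal type, from 88.2 CPM in ganglion cells to 137 CPM in rods in control, leaving out the 12 control astrocytes. In rods the CKO libraries ran from 115 through 150.2 to 195 CPM. Kit and level moved together there, with 165 to 195 CPM in the 4 libraries of kit version 5 and 115 to 151 CPM in the 6 of version 4, which the control shares. Within the control's batch the mean was 149 ± 2.96 CPM (SD, n = 3), above the control's 137 in 3 of 3 libraries. *Lrp5* was highest in astrocytes, at 288 CPM in control on 9 UMIs (132 to 546) and 69.3 ± 38.7 CPM in CKO (SD, n = 8, exact p = 0.111, the smallest possible). It came next in Müller glia, at 31.1 CPM in control and from 26.6 through 46.5 to 65.5 CPM in CKO. The sign of its fitted change there turned with the covariates and is given with the other settings.

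*Tspan12* was highest in retinal astrocytes, at 95.9 CPM in control on 3 UMIs and 80.1 ± 35.2 CPM in CKO (SD, n = 8, exact p = 0.556). In Müller glia it read 28.5 CPM in control and 40.3 ± 7.43 CPM in CKO (SD, n = 10), with 9 of 10 above control, and edgeR gave a log2 fold change of 0.28 ± 0.35 (SE, adjusted p = 0.904). Ganglion cells read 29.7 and 33.2 ± 7.31 CPM (SD, n = 11). Müller glia, ganglion cells and horizontal cells thus lie within each other's spread in CKO.

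*Fzd4* was low in all retinal types. Its highest mean level was in immune cells, on 20 UMIs in all. Rods read 8.60 CPM in control and ran from 4.67 through 7.29 to 10.9 CPM in CKO, with 2 of 10 above control. It did not pass the count filter in Müller glia, where it had 43 UMIs in all.

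The target genes had different homes in the retina. *Apcdd1* was highest in rod bipolar cells in 11 of 11 libraries, at 100.4 CPM in control (87.2 to 115) and from 83.8 through 116 to 134 CPM in CKO (7 of 10 above, exact p = 0.727). Horizontal and cone bipolar cells followed at 45.4 and 42.7 CPM in control, with overlapping intervals. Müller glia held 2.56% of its UMIs. *Axin2* was at like levels in glycinergic amacrine cells, ganglion cells and Müller glia (11.9, 15.3 and 13.2 CPM in control). In glycinergic amacrine cells 10 of 10 CKO libraries lay above control, with a mean of 16.4 ± 3.40 CPM (SD, n = 10), and the exact permutation test gave p = 0.273. Such tests were made for each of the 10 members in its highest type. With 1 control library none of them can reach 0.05, so their p-values, all at least 0.667 after Benjamini-Hochberg adjustment, do not bear on whether a member differed.

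In Müller glia 46 of the 86 wider pathway genes were tested, and edgeR called 0. Of the 46, 9 had an unadjusted p under 0.05, against 1210 of all 12992 genes. The share was larger among the pathway genes, and that difference was not tested. Their median log2 fold change was -0.09, against 0.01 for all genes. Of the 13 barrier genes 3 were tested there and 0 were called, with 1 at an unadjusted p under 0.05.

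Retinal ECs could not be examined. Nuclei with UMIs of at least 3 of the 9 EC markers numbered 307 of 77676 (22 control and 285 CKO). Of these, 152 carry the Müller glia label, and the 307 are deep nuclei, with a median of 17940 UMIs against 1860 in the rest. *Cldn5*, a defining EC marker, had 8 UMIs in all of them. Müller glia as a whole held EC-marker UMIs at 1292 CPM in control, chiefly *Flt1*, and those without 3 EC markers had 0 UMIs of *Cldn5*. So these nuclei do not make an endothelial set, and the members' levels in retinal endothelium are not known from these data.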

How the data were processed

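Members, lists and settings were chosen with earlier results of these data known. The deposited values are whole UMI counts for each gene in each nucleus. By their methods the authors used a GRCm39 index with PIPseeker, then CellBender and SOLO (the submitters' processing notes name Seurat and mm10), with mixed nuclei removed by hand. Cell type labels are those deposited by the authors. Depth ran from 90449 (CKO replicate 4, 104 nuclei) to 55803724 UMIs per retina library, and was 49798325 in the control and 31033373 in the CKO brain library. For retinal levels and tests, UMIs were summed per label and library with at least 10 nuclei and 10000 UMIs, which leaves replicate 4 out of most types. Brain sums are given for every label, including CKO pericytes, whose 9213 UMIs lie under that floor. The gene annotation differs between retina batches: with replicate 4 left aside, 499 genes with at least 20 UMIs in each library of batch 3 (CKO replicates 6 to 11) have 0 in batch 1 (control and replicates 1 to 3), and 222 the reverse. None is a member, but whether the members' gene models differ was not tested, so levels in batch 3 may not be on the same footing as the control's.

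Retinal sums were tested with edgeR 4.0.16 (quasi-likelihood, TMM, filterByExpr, batch and kit as covariates) in R 4.3.3, with Benjamini-Hochberg adjustment over all genes tested in a cell type, and with DESeq2 1.42.0 as an alternative. Single genes were compared by two-sided exact permutation over libraries. Brain ratios have exact conditional binomial intervals, and intervals on a level are exact Poisson intervals, both for counting error only. Sums, ratios and intervals were computed with scipy 1.17.1, pandas 2.3.3 and numpy 2.4.6 under Python 3.11.15, and plots were drawn with matplotlib 3.10.9. Gene positions are from GENCODE.

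Named genes were the 10 members, wider pathway genes past a fold of 1.5 in brain ECs at 50 or more UMIs or past the test in Müller glia, genes of the barrier list, the 5 nearest genes by correlation to *Ndp* and to *Lef1* (at 200 or more UMIs), and *Tgfbr1* and *Tgfbr2*. Outside this rule, 6 pathway genes within the fold (*Tnfrsf19*, *Znrf3*, *Ctnnb1*, *Tcf7l2*, *Tcf7* and *Myc*) were named after their values were seen, and cell type markers were named as the most abundant or a defining one of their list. Alternatives changed the scaling, filter, model, covariates, libraries, nuclei and fold.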

Additional observations from a re-analysis of the deposited data

Results flagged for a closer look

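Among 37 sets of CKO libraries (members with at least 200 UMIs in a retinal cell type), 2 held a library far from the others, and chance gives about 5% of such sets. Ganglion cells and immune cells, with 11 CKO libraries each, were not screened. *Axin2* in Müller glia read 2.37 CPM in replicate 7, while the other CKO libraries ran from 13.1 to 18.1 CPM. *Ndp* was also lowest there in replicate 7, at 2.37 CPM. Müller glia of replicate 7 held 842191 UMIs in all, so both values rest on very few counts. *Tspan12* in glycinergic amacrine cells read 21.3 CPM in replicate 11, above a range of 7.23 to 13.7 CPM in the others.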

How the results depend on the processing

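The count of members called in retinal cell types was 0 under all 18 alternatives tried, including leaving out each of the 10 CKO replicates with enough Müller glia in turn (all but replicate 4, Müller glia only). Over the 11 types the genes called numbered 21, and from 4 (kit only as covariate) to 791 (no count filter). The fitted sign in Müller glia turned in 6 of 162 member values, none of them called: the log2 fold change of *Lrp5*, -0.05, was 0.35 with kit only and 0.45 with no covariate, and that of *Axin2*, 0.11, was -0.034 with kit only. Leaving out 1 CKO replicate at a time gave -0.23 to 0.14 for *Lrp5* (highest without replicate 1), -0.026 to 0.51 for *Ndp* (lowest without replicate 1) and -0.030 to 0.16 for *Lrp6* (lowest without replicate 3). For *Reck* the range was -0.56 to -0.26 and for *Lef1* -1.01 to -0.60, each lowest without replicate 3. The cause was not tested. The *Ndp* difference in Müller glia stayed above 0 under 14 alternatives (4.64 to 12.9 CPM).

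Members past the fold in brain ECs numbered 1 as reported, beside 30.7% of all genes. With TMM factors (29.7% of all genes) and with equal weight per nucleus (51.9%) they numbered 2, *Apcdd1* and *Reck*. In nuclei of any label with EC markers (34.2%) there was 1, *Reck* in place of *Apcdd1*. In ECs low in pericyte markers (56.4%) there were 4 of 7. At a fold of 2 (13.4%) there were 0, and over the median of all genes (29.8%) 3. A higher fold leaves fewer genes past it by construction, and fewer nuclei leave fewer genes with enough UMIs. Under other scaling, weighting or nuclei the member ratios themselves moved, and the cause was not tested. All genes past the fold, 3486 as reported, numbered 5896 with equal weight per nucleus, 1072 in ECs low in pericyte markers, 1516 at a fold of 2 and 1825 at 200 or more UMIs. Of 43 member ratios on at least 50 UMIs under the alternatives for scaling, weighting and nuclei, 33 were below 1.

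No paired analysis was possible because only the CKO libraries carry repeat numbers. Depth limits *Ndp* in brain, all members in CKO pericytes and microglia, and control astrocytes of the retina (12 nuclei). Batch, with its gene annotation, and genotype can be separated only within the control's batch.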
